A study of Mus musculus with 18 samples.

Results

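The 38 genes described here encode splicing factors and proteins of nuclear speckles, and were found by their symbols among the 22063 genes of a count table of mouse hippocampus. All 38 were present and all 38 passed the filter on low counts that 14763 genes passed. The list was chosen with earlier results from these libraries known, so the values of its members against Control are a description and support nothing about the list. Mice were rotated to disturb their sense of orientation and the hippocampus, the region of spatial memory, was taken at once for sequencing of poly(A)-selected RNA. S-V (n = 5) was turned in a single direction with vision blocked, D+V (n = 5) in both directions with vision free, and D-V (n = 5) in both directions with vision blocked, a condition named the Coriolis illusion by the submitters; Control (n = 3) was a blank control. Strain, sex, age, the length of rotation and whether Control animals were placed in the apparatus were not stated in the labels. S-V and D+V differ in both direction and vision, so those factors cannot be told apart between them. No label ties the libraries to different animals; p-values therefore measure only their spread, which may be technical.

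Splicing removes introns from pre-mRNA. The U1 small nuclear ribonucleoprotein marks the start of an intron, U2AF and SF3B mark its end and branch point, and SR proteins bound to exons help these factors to settle. CLK kinases phosphorylate SR proteins and release them from nuclear speckles, bodies built around SON and SRRM2 in which splicing factors are stored. Many transcripts of these genes carry alternative exons or retained introns that keep them from being translated, and neurons and glia alike express them. The counts are per gene, so isoforms of a gene were not separated, and splicing itself was not measured.

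Library totals ran over 15558480 to 24280366 estimated counts in S-V, 15031084 to 25313119 in D+V, 15386151 to 21431803 in D-V and 20435507 to 22166391 in Control. No member had fewer than 213 counts in any library. Together the members held 0.375% to 0.381% of the counts in S-V, 0.366% to 0.398% in D+V, 0.36% to 0.39% in D-V and 0.363% to 0.399% in Control, so the sum of the list overlapped between all groups. All 9 markers of hippocampal neurons had counts in every library. So did all 7 markers of striatum, so the presence of counts cannot check the tissue label. Tissue next to the hippocampus varied: markers of the choroid plexus summed to 131 to 4151 CPM (counts scaled to a common library size) in S-V, 67.5 to 9074 CPM in D+V, 88.8 to 10804 CPM in D-V and 90.1 to 1087 CPM in Control, and those of thalamus and habenula to 96.1 to 133 CPM in S-V, 83.1 to 143 CPM in D+V, 103 to 125 CPM in D-V and 108 to 203 CPM in Control. In D+V relative to Control, where every edgeR call among the members lies, 9 of 9 choroid plexus markers were positive (median log2 difference 1.61, 0 called), 11 of 11 of thalamus and habenula negative (−0.712, 0 called), 7 of 9 of endothelium and pericytes negative (−0.352; Cldn5 and Pdgfrb called lower), 6 of 6 of astrocytes positive (0.147; Aqp4 called higher) and 5 of 5 of red blood cells positive (1.51, 0 called). Markers of striatum were 1 positive and 6 negative (−0.502), of oligodendrocytes 3 and 3 (−0.0168), and of microglia 2 and 5 (−0.0561). Those of hippocampal neurons were 4 positive and 5 negative (−0.0127), with 0 called in each of these lists. The summed levels overlapped between D+V and Control in every list. Beyond the fits with choroid plexus and thalamus scores given below, the part of these cells in the results was not tested. In bulk tissue, fewer cells of a type and less RNA per cell cannot be told apart.

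In D+V relative to Control 4 members fell and 0 rose: Clasrp, Leng8, Ppp1r10 and Snrnp70. These were the only members called in any of the 7 comparisons by edgeR's quasi-likelihood test at a Benjamini-Hochberg adjusted p under 0.05 over all genes tested. They were 10.5% of the members, and 0.169% of all genes tested were called lower in that comparison (0.942% in either direction); since the members were chosen with this contrast known, nothing is read from that difference. Clasrp, an SR-related protein that binds the kinase CLK4, had 16.2, 15.4, 18.01, 17.5 and 18.7 CPM in S-V, 16.9, 14.4, 14.5, 17.3 and 17.98 CPM in D+V, 18.3, 19.2, 20.4, 19.2 and 21.1 CPM in D-V, against 23.6, 22.9 and 21.7 CPM in Control. Every D+V and S-V library lay below every Control library, and so did every D-V library, with D-V closest to Control. The difference of D+V from Control was −0.49 (SE 0.09) on the log2 scale (adjusted p 0.0241, edgeR), with means of 16.2 ± 1.66 CPM in D+V and 22.7 ± 0.965 CPM in Control (SD, n = 5 and 3).

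Leng8 had 51.7, 49.4, 49.2, 62.2 and 45.03 CPM in S-V, 46.8, 55.3, 61.1, 55.8 and 51.3 CPM in D+V, 57.5, 59.5, 68.4, 52.7 and 58.1 CPM in D-V, against 68.5, 71.04 and 77.99 CPM in Control. Every library of the rotated groups lay below every Control library, D-V replicate 3 only narrowly. The difference of D+V from Control was −0.42 (SE 0.10) (adjusted p 0.0437, edgeR). Ppp1r10, which encodes PNUTS, the nuclear targeting subunit of protein phosphatase 1, had 63.2, 52.5, 56.96, 55.3 and 56.4 CPM in S-V, 51.5, 50.3, 55.8, 58.2 and 55.7 CPM in D+V, 73.4, 63.3, 65.6, 62.3 and 65.04 CPM in D-V, against 67.7, 70.97 and 67.8 CPM in Control. Here S-V and D+V lay below Control in every library while D-V spanned it. The difference of D+V from Control was −0.34 (SE 0.07) (adjusted p 0.0331, edgeR). Snrnp70, the U1-70K protein of the U1 ribonucleoprotein, had 75.8, 75.6, 72.5, 68.9 and 73.2 CPM in S-V, 69.2, 63.8, 63.99, 73.5 and 61.5 CPM in D+V, 89.2, 82.7, 80.8, 82.4 and 87.1 CPM in D-V, against 83.8, 80.6 and 78.2 CPM in Control. D+V and S-V lay under Control in every library, and D-V overlapped Control. The difference of D+V from Control was −0.28 (SE 0.06) (adjusted p 0.0411, edgeR).

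**Figure D1:**
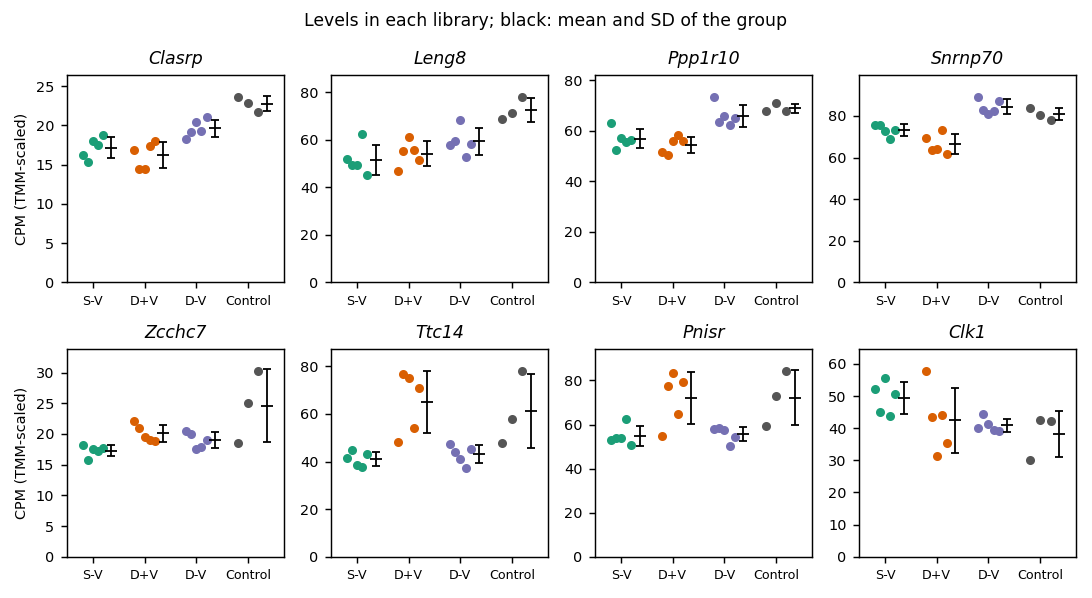
CPM (vertical axis, scaled by TMM) of 8 members in each library of S-V, D+V, D-V and Control; each point is a library and the black marks are the group mean and SD. In Clasrp and Leng8 every library of the 3 rotated groups lies below the 3 Control libraries, while Ttc14 and Pnisr spread widely within D+V and Control.

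The promoters of these 4 members are shown because their transcripts were lower in the same comparison. Each window runs from 250 bases before to 50 bases after a listed start of the gene, in RefSeq on the build GRCm38.p6. It reads 5′ to 3′ on the strand of the gene. Clasrp, Leng8 and Ppp1r10 have 2 windows listed each, and the first is shown. Capitals mark matches on either strand to a GC box, spelled GGGCGG. They also mark a CCAAT box, spelled as in its name, and the string CCGGAA, a form of the ETS site called the ETS core here. Shorter or other forms of ETS sites were not searched. Clasrp is at chr7:19604437-19604736 on the minus strand, Leng8 at chr7:4136806-4137105 on the plus strand, Ppp1r10 at chr17:35916946-35917245 on the plus strand and Snrnp70 at chr7:45395693-45395992 on the minus strand.
Clasrp: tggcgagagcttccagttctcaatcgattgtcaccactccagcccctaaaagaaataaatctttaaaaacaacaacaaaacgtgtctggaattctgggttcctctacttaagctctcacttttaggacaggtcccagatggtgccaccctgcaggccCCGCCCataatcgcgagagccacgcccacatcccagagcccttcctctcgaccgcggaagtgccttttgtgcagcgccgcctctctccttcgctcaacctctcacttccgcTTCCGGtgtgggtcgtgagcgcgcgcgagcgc
Leng8: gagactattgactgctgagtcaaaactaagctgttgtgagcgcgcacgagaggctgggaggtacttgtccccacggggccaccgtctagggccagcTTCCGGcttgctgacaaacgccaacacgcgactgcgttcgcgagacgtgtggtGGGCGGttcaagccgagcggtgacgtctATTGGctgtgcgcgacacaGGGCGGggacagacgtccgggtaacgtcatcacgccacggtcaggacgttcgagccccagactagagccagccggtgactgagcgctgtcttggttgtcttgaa
Ppp1r10: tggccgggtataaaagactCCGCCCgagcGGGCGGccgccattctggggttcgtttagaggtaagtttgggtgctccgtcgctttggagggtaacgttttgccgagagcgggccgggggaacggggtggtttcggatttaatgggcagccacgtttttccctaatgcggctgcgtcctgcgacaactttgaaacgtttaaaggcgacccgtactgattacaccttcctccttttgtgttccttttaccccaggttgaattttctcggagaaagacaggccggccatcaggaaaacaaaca
Snrnp70: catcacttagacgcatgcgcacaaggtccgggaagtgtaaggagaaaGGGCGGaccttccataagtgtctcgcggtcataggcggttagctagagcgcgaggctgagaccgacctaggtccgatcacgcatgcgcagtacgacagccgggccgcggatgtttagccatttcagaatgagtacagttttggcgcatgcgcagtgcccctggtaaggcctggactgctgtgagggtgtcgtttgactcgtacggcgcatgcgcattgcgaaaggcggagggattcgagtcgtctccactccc

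The Clasrp window held 1 GC box, 0 CCAAT boxes and 1 ETS core at 56% GC, and the Leng8 window held 2 GC boxes, 1 CCAAT box and 1 ETS core at 61.3% GC. The Ppp1r10 window held 2 GC boxes, 0 CCAAT boxes and 0 ETS cores at 54.3% GC. The Snrnp70 window held 1 GC box, 0 CCAAT boxes and 0 ETS cores at 58.7% GC. A TATA box, spelled TATAAA and left in lower case, occurred 1 time in the Ppp1r10 window and 0 times in those of Clasrp, Leng8 and Snrnp70. Of the 38 members 32 matched a promoter window. Over these, with both strands searched and overlapping matches allowed, 24 held a GC box, 15 a CCAAT box, 10 an ETS core and 5 the TATA box TATAAA. Among the first windows of 27025 genes, 35.9% held a GC box, 37.9% a CCAAT box, 15.2% an ETS core and 14.2% the TATA box. Member windows had a median GC content of 62.5%, and windows of all genes had 52.7%. A match is a string of letters and not a site in use.

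The 4 calls in D+V depended on single libraries and on the fit. Left out singly, libraries gave 0 calls without Control replicate 1, Control replicate 2 or D+V replicate 3, 1 (Clasrp) without D+V replicate 5, 2 (Clasrp and Ppp1r10) without D+V replicate 2, 3 without Control replicate 3 or D+V replicate 4, and 8 where D+V replicate 1 was left out, in which fit 8.58% of all genes were called. The 8 were the 4 named with Ddx39b, Snrpa and Snrpb, lower, and Son, higher. In this comparison all 3 pairs of libraries with the same replicate number had correlated deviations (r from 0.107 to 0.168). Control replicate 3 and D+V replicate 4, with different numbers, had r of 0.254, so these values do not show a pairing. With the replicate number as a block edgeR called 0 members. Clasrp was then at −0.545, Leng8 at −0.415, Ppp1r10 at −0.344 and Snrnp70 at −0.282 (adjusted p 0.0563 to 0.0841, edgeR). There were also 0 calls among the members with only the D+V and Control libraries in the fit, with a thalamus and habenula score as a covariate, without the 6 libraries highest in choroid plexus markers, and with the trends of each library on transcript GC content and length taken out. DESeq2 gave 5 calls among the members (5.14% of all genes) and limma voom 12 (12.7% of all genes). The 4 stayed below Control in sign in each of these fits.

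Over the whole list no common direction was measured. In S-V relative to Control 18 members were positive and 20 negative, with a median log2 difference of −0.0118 beside 0.00233 over all genes tested. In D+V 16 were positive and 22 negative, with a median of −0.0338 beside −0.00229 (0.0244 without Control replicate 3), and in D-V 17 were positive and 21 negative, with a median of −0.00248 beside 0.00496. In S-V relative to Control edgeR called 0 members, 14 (36.8%) had an unadjusted p under 0.05 where 13.4% of all genes did, DESeq2 called 6 (1.44% of all genes) and limma voom 7 (2.15% of all genes); without Control replicate 1 edgeR called Zcchc7, the 1 gene it called over the whole table. The libraries of S-V and Control did not overlap for 16 members, 7 higher and 9 lower (18.4% and 23.7% of the members, beside 6.62% and 5.74% of all genes). In D+V they did not overlap for 5 members, the 4 named and Ddx39b, all lower (13.2%, beside 3.96% of all genes lower without overlap). There 13 members (34.2%) had an unadjusted p under 0.05 (edgeR), beside 2601 of 14763 genes. In D-V relative to Control edgeR, DESeq2 and limma voom called 0 members. Unadjusted, 8 (21.1%) had a p under 0.05 (edgeR), all lower. Of all genes 2.65% did so lower, and 888 of 14763 in either direction. With no overlap, 3 members lay higher and 5 lower in D-V (7.89% and 13.2%, beside 2.75% and 2.37% of all genes). With the 3 rotated groups averaged and set against Control, edgeR called 0 members (1, Zcchc7, without Control replicate 1), 10 (26.3%) had an unadjusted p under 0.05 where 12.9% of all genes did, and DESeq2 and limma voom called 4 each, with 1.75% and 2.58% of all genes; Clasrp, Leng8 and Ddx39b were lower in all rotated libraries than in all of Control (7.89% of the members, beside 0.359% of all genes). The 3 comparisons share the Control libraries.

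**Figure D2:**
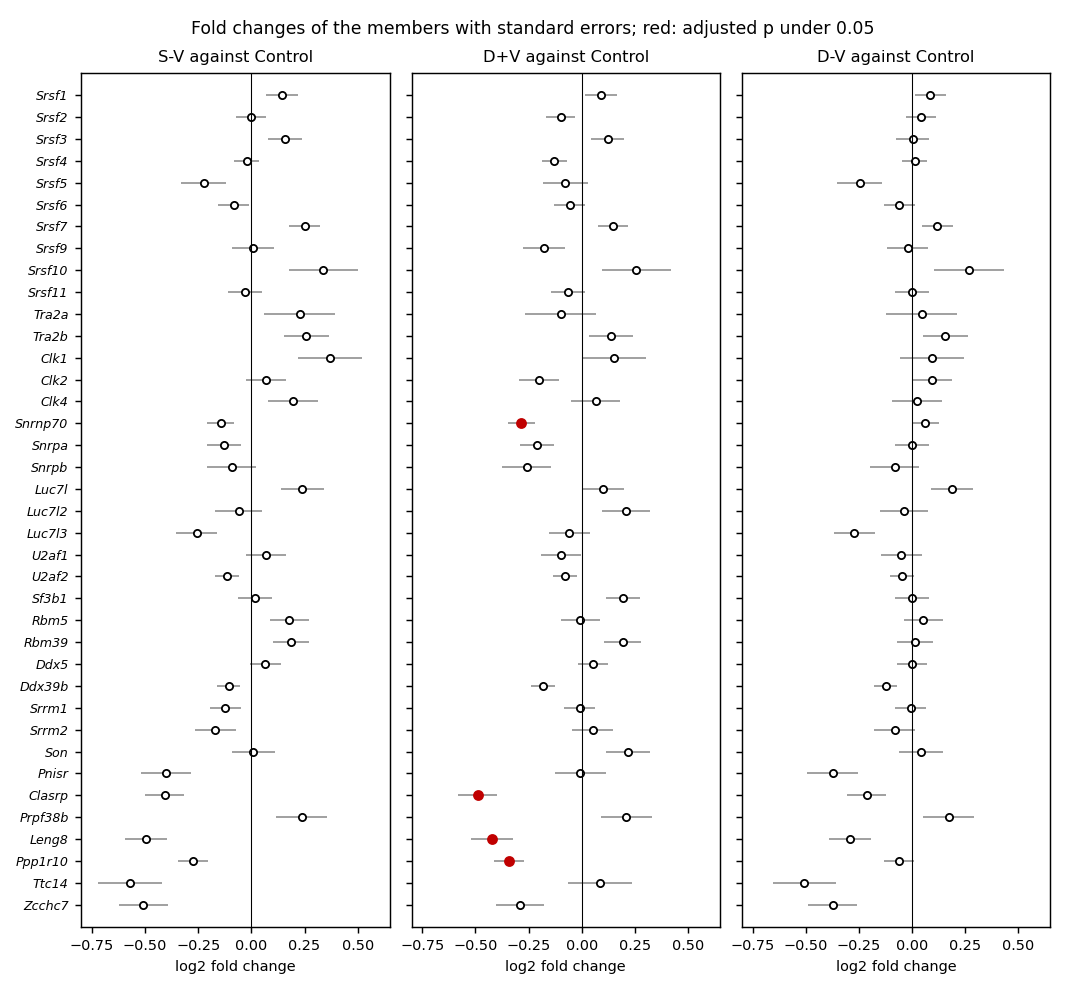
Log2 fold change with its standard error for the 38 members (rows, grouped by role) in S-V, D+V and D-V relative to Control; filled red points passed an adjusted p under 0.05 (edgeR). Clasrp, Leng8, Ppp1r10 and Snrnp70 passed in D+V, while the same 4 were at −0.49 to −0.14 in S-V without passing.

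Among the SR proteins, 7 of the 12 genes listed with the Tra2 proteins were positive for S-V, 5 for D+V and 8 for D-V. EdgeR called 0 in any comparison, and 8 had an unadjusted p under 0.05 in at least 1 of the 7. DESeq2 called Srsf7 in S-V relative to Control, and limma voom called 4 genes over the 7. Single comparisons had 888 to 2601 of 14763 genes under 0.05 unadjusted. The share of all genes meeting such a rule in at least 1 comparison was not counted, so nothing is read from these counts. Srsf1, the founding SR protein, had 149, 142, 149.5, 143 and 142 CPM in S-V, 150.1, 134, 121, 157 and 137 CPM in D+V, 149.8, 145, 136, 140.2 and 127 CPM in D-V, against 127, 133 and 135 CPM in Control, with every S-V library above every Control library and D+V and D-V overlapping Control. Its log2 differences from Control were 0.14 for S-V, 0.09 for D+V and 0.09 for D-V. Srsf7, an SR protein with a zinc knuckle, was at 0.25 for S-V, 0.15 for D+V and 0.12 for D-V, with the smallest adjusted p of the SR genes in S-V (0.179, edgeR). Srsf10, which is dephosphorylated in heat shock, was at 0.34 for S-V, 0.26 for D+V and 0.27 for D-V, with a standard error of 0.16 in each. Srsf5, on the other side, was at −0.23 for S-V, −0.08 for D+V and −0.25 for D-V. The speckle protein Srsf2 was at −0.10 in D+V and 0.04 in D-V, and at −0.00068 in S-V.

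Srsf3, the smallest SR protein and an adaptor for mRNA export, was at 0.16 for S-V, 0.12 for D+V and 0.0025 for D-V. Srsf4 was at −0.02 for S-V, −0.13 for D+V and 0.01 for D-V, and Srsf6 at −0.08 for S-V, −0.06 for D+V and −0.06 for D-V. Srsf9 was at 0.01 for S-V, −0.18 for D+V and −0.02 for D-V. Srsf11, which acts on microexons of neurons, was at −0.03 for S-V, −0.06 for D+V and −0.0004 for D-V. The SR-like activators Tra2a and Tra2b were at 0.23 and 0.26 in S-V, −0.10 and 0.14 in D+V, and 0.05 and 0.16 in D-V. Tra2a ranged over 27.7 to 59.3 CPM in D+V and over 43.2 to 46.3 CPM in Control, so its spread within D+V exceeded any difference between the groups.

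All 3 CLK kinases were positive in S-V and in D-V and 2 of 3 in D+V. EdgeR called 0 in any comparison, with 2 at an unadjusted p under 0.05 in at least 1 of the 7, a rule for which the share of all genes was not counted. DESeq2 called Clk2 in D-V relative to D+V, and limma voom called Clk1 and Clk2. Clk1, the kinase whose own pre-mRNA is stored with introns retained, had 52.2, 45.02, 55.6, 43.6 and 50.7 CPM in S-V, 57.8, 43.6, 31.4, 44.02 and 35.3 CPM in D+V, 40.1, 44.3, 41.4, 39.5 and 38.97 CPM in D-V, against 30.1, 42.4 and 42.3 CPM in Control. Every S-V library lay above every Control library, and the D+V and D-V libraries overlapped Control. Its log2 differences were 0.37 (SE 0.15) in S-V, 0.15 (SE 0.15) in D+V and 0.10 (SE 0.15) in D-V, the first with adjusted p 0.285 (edgeR). Clk4 was at 0.20 for S-V, 0.07 for D+V and 0.02 for D-V, and Clk2 at 0.07 for S-V, −0.20 for D+V and 0.09 for D-V.

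Of the 6 genes of the U1 ribonucleoprotein, the Sm core and the Luc7-like family, 1 was positive and 5 negative in S-V, 2 were positive and 4 negative in D+V, and 2 were positive and 4 negative in D-V; Snrnp70 in D+V was the only call by edgeR. DESeq2 also called it in D-V relative to D+V, and limma voom called Snrpa, Snrpb and Luc7l2 as well. Snrpa, an RNA-binding protein of U1, was at −0.13 for S-V, −0.21 for D+V and −0.0025 for D-V, and Snrpb, the Sm B protein, at −0.09 for S-V, −0.26 for D+V and −0.08 for D-V. Luc7l, whose human relatives select 5′ splice sites with U1, had 95.9, 96.3, 90.8, 86.98 and 84.2 CPM in S-V, 95.9, 74.8, 68.4, 92.6 and 79.97 CPM in D+V, 96.8, 90.2, 78.4, 80.1 and 92.4 CPM in D-V, against 76.5, 71.4 and 82.9 CPM in Control. All S-V libraries were above all Control libraries, and the D+V and D-V libraries overlapped Control. Its log2 differences were 0.24 for S-V, 0.10 for D+V and 0.19 for D-V, with adjusted p 0.292 in S-V (edgeR). Luc7l2 was at −0.06 for S-V, 0.21 for D+V and −0.04 for D-V, and Luc7l3 at −0.26 for S-V, −0.06 for D+V and −0.27 for D-V, so members of that family lay on both sides of 0.

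The factors of the 3′ splice site gave 0 calls in edgeR and DESeq2. Of the 5, 3 had an unadjusted p under 0.05 (edgeR) in at least 1 comparison, where the share of all genes was not counted. Limma voom called Sf3b1 in D-V relative to D+V, and Sf3b1, U2af1 and Rbm5 in D+V relative to S-V, as edgeR did there where D+V replicate 1 was left out. Sf3b1, the SF3B subunit at the branch point, had 176, 179.5, 179.9, 172 and 183 CPM in S-V, 175, 203, 228, 196 and 204 CPM in D+V, 188, 185, 170.0, 163 and 172 CPM in D-V, against 152, 186 and 189 CPM in Control. D+V replicates 2 to 5 lay above all Control libraries and D+V replicate 1 did not, and S-V and D-V overlapped Control. The difference of D+V from Control was 0.19 (SE 0.08) (adjusted p 0.216, edgeR), while S-V was at 0.02 and D-V at −0.0026. U2af1, which reads the AG at the intron end, was at 0.07 for S-V, −0.10 for D+V and −0.05 for D-V, and U2af2, which binds the pyrimidine tract, at −0.12 for S-V, −0.08 for D+V and −0.05 for D-V. Rbm5, a regulator of 3′ splice site pairing, was at 0.18 for S-V, −0.01 for D+V and 0.05 for D-V, and Rbm39, a U2AF-like protein, at 0.19 for S-V, 0.19 for D+V and 0.01 for D-V. Of the helicases, Ddx5, a coregulator of transcription and splicing, had 754, 769.8, 769, 748 and 791 CPM in S-V, 765, 718, 721, 847 and 745 CPM in D+V, 804, 724, 719.8, 685 and 721 CPM in D-V, against 663, 749 and 784 CPM in Control, with every group overlapping Control. Its log2 differences were 0.07 for S-V, 0.05 for D+V and −0.0024 for D-V. Ddx39b, which acts in spliceosome assembly and mRNA export, was below Control in every library of the rotated groups, at −0.11 (SE 0.06) in S-V, −0.18 (SE 0.06) in D+V and −0.12 (SE 0.06) in D-V, with adjusted p 0.0967 in D+V (edgeR).

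Among the scaffold and SR-related proteins of speckles edgeR called Clasrp in D+V only. DESeq2 also called Clasrp in S-V relative to Control and Pnisr in the comparisons of D+V with D-V and S-V, and limma voom called Son and Srrm2 besides these. Srrm2, a core speckle scaffold, had 210.0, 249, 226, 225 and 210.2 CPM in S-V, 208, 268, 275, 265 and 289.6 CPM in D+V, 264, 227, 232, 208 and 258 CPM in D-V, against 237, 243 and 277 CPM in Control. All groups overlapped Control, and its log2 differences were −0.17 for S-V, 0.05 for D+V and −0.08 for D-V. Son, the other core scaffold, was at 0.01 for S-V, 0.22 for D+V and 0.04 for D-V, with D+V replicate 1 below Control and the other 4 D+V libraries above it. Pnisr, an SR-related partner of pinin, had 52.7, 53.8, 53.7, 62.5 and 50.9 CPM in S-V, 54.8, 77.5, 83.4, 64.9 and 79.2 CPM in D+V, 57.9, 58.4, 57.4, 50.4 and 54.3 CPM in D-V, against 59.5, 72.9 and 84.2 CPM in Control. D-V lay below Control in every library, S-V did so except for replicate 4, and D+V spanned Control; the log2 differences were −0.40 (SE 0.12) in S-V (adjusted p 0.187, edgeR), −0.01 (SE 0.12) in D+V and −0.37 (SE 0.12) in D-V (−0.248 without Control replicate 3). Srrm1, an exon-bridging coactivator, was at −0.12 for S-V, −0.01 for D+V and −0.01 for D-V, and Prpf38b at 0.24 for S-V, 0.21 for D+V and 0.17 for D-V.

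The 4 genes listed as other nuclear RNA factors were all negative in S-V, and their median of −0.501 was the lowest of the 7 role lists there. DESeq2 and limma voom called all 4 lower in S-V relative to Control, where they called 1.44% and 2.15% of all genes. EdgeR called 0 of them there. Ttc14, named for its tetratricopeptide repeats, had 41.7, 44.7, 38.5, 37.8 and 43.1 CPM in S-V, 48.2, 76.9, 74.96, 54.1 and 70.7 CPM in D+V, 47.5, 43.9, 41.2, 37.5 and 45.05 CPM in D-V, against 47.6, 57.9 and 77.97 CPM in Control. All S-V and D-V libraries lay below all Control libraries, D-V replicate 1 only just, and D+V spanned Control. Its log2 differences were −0.57 (SE 0.15) in S-V (adjusted p 0.17, edgeR), 0.09 (SE 0.15) in D+V and −0.51 (SE 0.15) in D-V (adjusted p 0.71); without Control replicate 3 the D-V value was −0.293. Zcchc7, a zinc knuckle protein that in human cells works with the nuclear exosome, had 18.1, 15.7, 17.5, 17.3 and 17.7 CPM in S-V, 22.1, 20.9, 19.5, 19.1 and 18.8 CPM in D+V, 20.5, 19.99, 17.5, 17.8 and 18.9 CPM in D-V, against 18.5, 25.1 and 30.2 CPM in Control. S-V lay below Control in every library, and Control replicate 1 lay under all D+V libraries and among those of D-V. Its log2 differences were −0.51 (SE 0.11) in S-V (adjusted p 0.145, edgeR), −0.29 (SE 0.11) in D+V and −0.37 (SE 0.11) in D-V, and without Control replicate 3 they were −0.333 in S-V and −0.199 in D-V. Leng8 and Ppp1r10 were at −0.49 (SE 0.10) and −0.28 (SE 0.07) in S-V, with adjusted p of 0.0944 and 0.162 (edgeR), and at −0.29 (SE 0.10) and −0.06 (SE 0.07) in D-V.

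**Figure D3:**
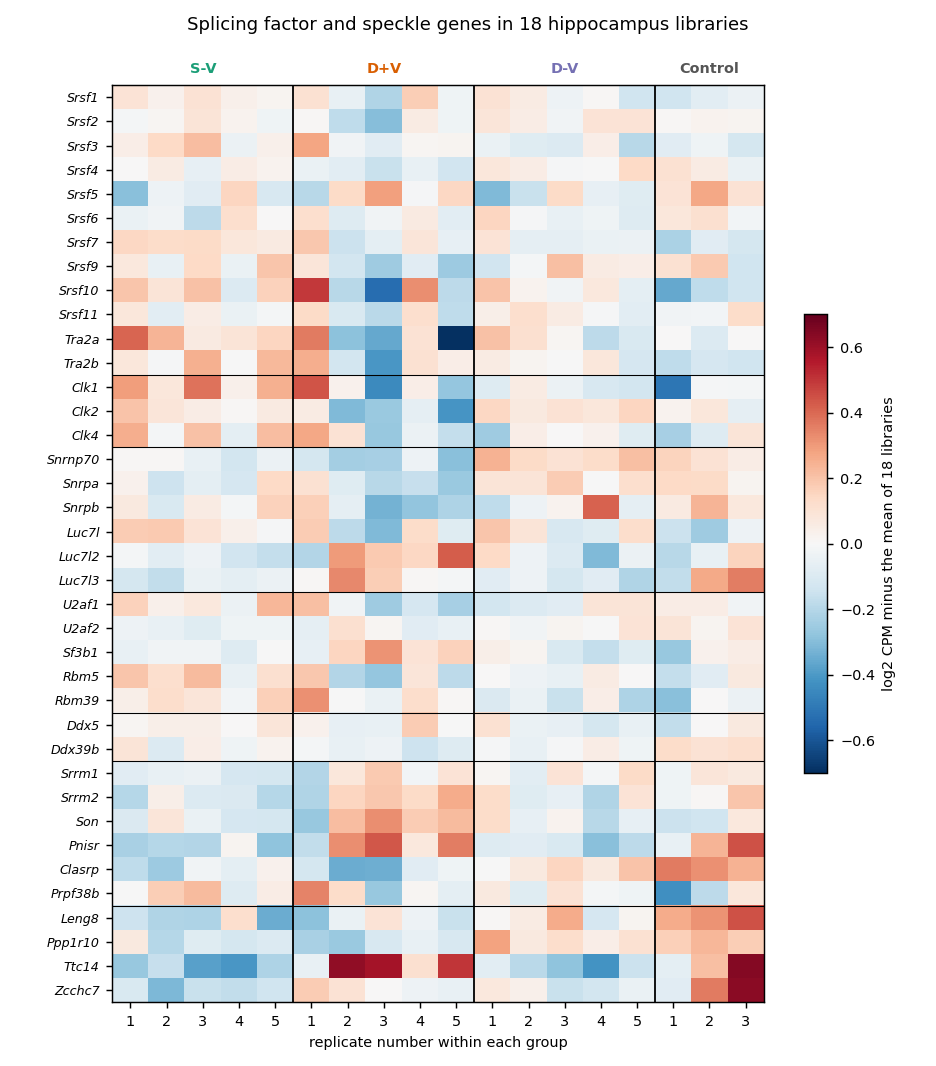
Log2 CPM of the 38 members (rows, in role groups) in the 18 libraries (columns, replicates of S-V, D+V, D-V and Control), each minus its mean over all libraries; red is above and blue below that mean, with the scale ending at 0.7 on either side. D+V replicates 2, 3 and 5 and Control replicate 3 share high Ttc14 and Pnisr, and D+V replicate 1 is high in Srsf10, Tra2a and Clk1.

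Among the rotated groups, blocked against free vision in rotation in both directions (D-V relative to D+V) gave the smallest p-values, and 0 members passed in edgeR. Unadjusted, 13 members (34.2%) were under 0.05 where 13.6% of all genes were; DESeq2 called 5 (1.88% of all genes) and limma voom 10 (5.55% of all genes). Without D+V replicate 1 edgeR called 10 members (8.38% of all genes), and without D+V replicate 4 it called Snrnp70, Ppp1r10 and Ttc14 (0.422% of all genes). Snrnp70 was higher by 0.34 (SE 0.06) in D-V, with means of 84.4 ± 3.54 CPM in D-V and 66.4 ± 4.84 CPM in D+V (SD, n = 5 each) and no overlap; its adjusted p was 0.0705 (edgeR), and no gene tested had a smaller one. Ppp1r10 was at 0.28 (SE 0.06) (adjusted p 0.0976, edgeR) and Ttc14 at −0.59 (SE 0.13) (adjusted p 0.0976, edgeR), neither overlapping between D-V and D+V. With each library's GC and length trends taken out, Snrnp70 was at 0.213, Ppp1r10 at 0.246 and Ttc14 at −0.199. Their adjusted p was then 0.605, 0.396 and 0.605 (edgeR). Clk2 was at 0.29, Clasrp at 0.27, Snrpa at 0.21, Pnisr at −0.37 and Luc7l2 at −0.24. In all 7 members did not overlap between D-V and D+V, 5 higher and 2 lower in D-V (13.2% and 5.26% of the members, beside 0.637% and 0.942% of all genes). The median over the members was 0.00625, beside 0.00894 over all genes tested.

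D+V relative to S-V gave 0 calls in edgeR, with 14 members (36.8%) at an unadjusted p under 0.05 where 12.8% of all genes were; DESeq2 called Pnisr and Ttc14 (1% of all genes), limma voom called 13 members (13.2% of all genes), and edgeR called 11 where D+V replicate 1 was left out (10.1% of all genes). Ttc14 was at 0.66 (SE 0.13) and Pnisr at 0.39 (SE 0.10) (adjusted p 0.189 each, edgeR). Each D+V library lay above every S-V library in Ttc14, and 4 of 5 did so in Pnisr. With the GC and length trends taken out they were at 0.298 and 0.351 (adjusted p 0.453 and 0.444, edgeR). Tra2a was at −0.33, Clk2 at −0.27, Luc7l2 at 0.27 and Srrm2 at 0.22. Ttc14, Luc7l3 and Zcchc7, all higher in D+V, did not overlap between the groups (7.89% of the members, beside 0.616% of all genes higher). The median of the members was −0.0605, beside −0.00461 over all genes tested. D-V relative to S-V, which sets rotation in both directions against a single direction with vision blocked in each, gave 0 calls in edgeR, DESeq2 and limma voom, with 8 members (21.1%) at an unadjusted p under 0.05 where 6.29% of all genes were. Snrnp70 was at 0.20 (SE 0.06) and Ppp1r10 at 0.21 (SE 0.06) (adjusted p 0.651 each, edgeR), and Clk1 at −0.28. Snrnp70 and U2af2, both higher in D-V, did not overlap between D-V and S-V (5.26% of the members, beside 1.15% of all genes higher).

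Within D+V the members divided the libraries. Replicates 2, 3 and 5 had 70.7 to 76.9 CPM of Ttc14 and 77.5 to 83.4 CPM of Pnisr, replicate 4 had 54.1 and 64.9 CPM, and replicate 1 had 48.2 and 54.8 CPM; Control replicate 3 had 78.0 and 84.2 CPM. In replicates 2, 3 and 5 Clk2 was at 15.02 to 16.7 CPM, and in replicates 1 and 4 at 20.8 and 19.2 CPM. Over the 18 libraries the log2 levels of Ttc14 correlated with those of Pnisr (Pearson r = 0.917), Srrm2 (0.788), Luc7l3 (0.787), Luc7l2 (0.784) and Sf3b1 (0.742), and inversely with Clk2 (−0.78) and Srsf9 (−0.663). With the group means taken out, r was 0.806 for Pnisr, 0.823 for Sf3b1 and −0.606 for Clk2. These are descriptions, over points that share library preparation. Transcript lengths were 9.661 kb for Ttc14, 8.864 kb for Srrm2 and 6.195 kb for Sf3b1. They were 5.244 kb for Luc7l3, 4.545 kb for Pnisr and 4.253 kb for Luc7l2. Son (8.731 kb) had r of 0.676 with Ttc14. Srsf1 (5.362 kb) and Luc7l (4.934 kb) had r of −0.433 and −0.52 with it. Clk2 and Srsf9, with the inverse r given above, had 2.154 kb and 1.162 kb. The trend of log2 CPM on transcript length in each library had a Spearman rho of −0.434 in D+V replicate 1 and 0.198, 0.434, 0.438 and 0.42 in D+V replicates 2 to 5. Replicate 4 had the highest rho and the lowest Ttc14 of replicates 2 to 5. With each library's GC and length trends taken out together, Ttc14 was at 0.298 in place of 0.657 in D+V relative to S-V. In D+V relative to Control it was at −0.243 in place of 0.0866. The part of length in these levels, apart from GC content, was not tested.

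**Figure D4:**
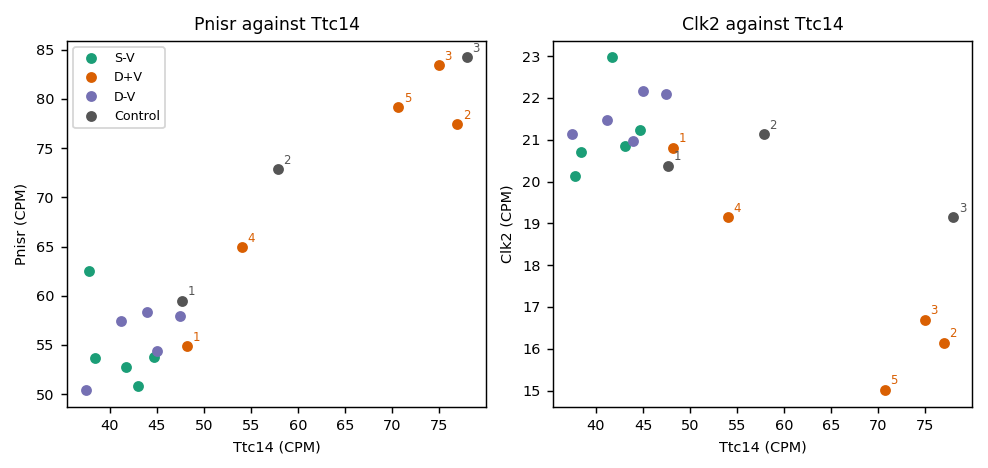
CPM of Pnisr (left) and of Clk2 (right) against CPM of Ttc14 in the 18 libraries, coloured by group, with the replicate number beside D+V and Control points. D+V replicates 2, 3 and 5 lie at the right with Pnisr at 77.5 to 83.4 CPM and Clk2 at 15.02 to 16.7 CPM, beside Control replicate 3 in Pnisr but not in Clk2.

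Base composition of the transcripts went with the differences of the members most closely in D+V relative to Control and in D-V relative to D+V. In D+V relative to Control the log2 difference had a Spearman rho of −0.709 with transcript GC content over the 38 members, and of −0.539 over 14743 genes; in D-V relative to D+V it was 0.721 over the members and 0.435 over all genes. Over the members it was −0.371 in S-V relative to Control, −0.178 in D-V relative to Control, 0.554 in D-V relative to S-V and −0.291 in D+V relative to S-V, beside −0.434, −0.245, 0.326 and −0.167 over all genes. In D+V relative to S-V the rho with transcript length was larger, at 0.69 over the members and 0.477 over all genes. Genes are not independent replicates. Of the 14 members over 50% GC, 13 were negative in D+V and 1 positive (median −0.192), and of the other 24, 9 were negative and 15 positive (median 0.0876). The 4 members that fell in D+V have transcripts of 61.24% (Clasrp), 58.5% (Snrnp70), 56.69% (Leng8) and 54.69% GC (Ppp1r10), and Ttc14 has 38.25%. The trend of log2 CPM on GC content in each library ran from −0.239 to −0.028 (rho) in S-V, −0.351 to −0.0733 in D+V, −0.132 to 0.309 in D-V and 0.126 to 0.416 in Control. After each library's GC and length trends were taken out, Clasrp was at −0.30, Leng8 at −0.36, Ppp1r10 at −0.27 and Snrnp70 at −0.105 in D+V relative to Control, with adjusted p from 0.334 to 0.889 (edgeR), and the median absolute difference of the members was 0.0722 in place of 0.134. In the same fit Ttc14 (−0.54) and Zcchc7 (−0.61) were called lower in S-V relative to Control (adjusted p 0.0276 and 0.0412, edgeR), with 5 genes called over the whole table. With the replicate block added to that fit, 0 members were called there.

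**Figure D5:**
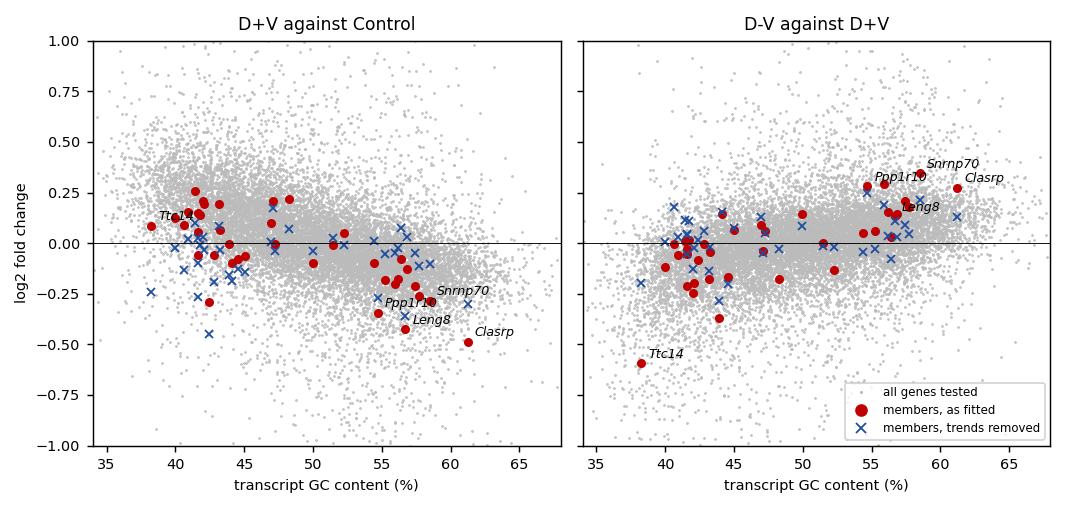
Log2 fold change against transcript GC content (%) in D+V relative to Control (left) and D-V relative to D+V (right): grey dots are all genes tested with a GC value (of 14743, 255 at left and 145 at right lie outside the axes), red points the 38 members, blue crosses the members with each library's GC and length trends removed. The red points slope down at left (rho −0.709) and up at right (rho 0.721).

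Outside the list, 156 other genes of the splicing machinery and nuclear RNA handling were tested in 10 lists, with 2 calls, both higher in D+V relative to Control: Syncrip and Qk. In the same comparison 0.772% of all genes were called higher. Syncrip, the hnRNP Q protein, averaged 86.1 ± 3 CPM in S-V, 96.1 ± 5.87 CPM in D+V and 82.2 ± 5.54 CPM in D-V (SD, n = 5 each), against 73.7 ± 8.98 CPM in Control (n = 3), with a D+V difference of 0.38 (SE 0.08, adjusted p 0.0316, edgeR). Qk, the quaking RNA-binding protein of glia, averaged 295 ± 14.9 CPM in S-V, 326 ± 20.9 CPM in D+V and 284 ± 31.5 CPM in D-V, against 252 ± 24 CPM in Control, with a D+V difference of 0.37 (SE 0.09, adjusted p 0.0411, edgeR). Their libraries in D+V lay above all Control libraries, and so did those in S-V, while D-V overlapped Control. The lowest S-V values were 83.3 CPM of Syncrip and 278 CPM of Qk, and the highest in Control 81.9 and 273 CPM. In S-V 6.62% of all genes lay above Control without overlap. Of the glial markers, those of astrocytes were positive in D+V, as given above. Those of oligodendrocytes were 3 positive and 3 negative (median −0.0168), and those of microglia 2 positive and 5 negative (−0.0561). The part of these cells in the levels of Syncrip and Qk was not tested. The tri-snRNP and catalytic proteins (0 of 26 called) were led by Crnkl1 at 0.35 and Eftud2 at −0.19 in D+V (adjusted p 0.0576 and 0.0889, edgeR), and neuronal regulators by Ptbp2 at 0.28 after Qk (adjusted p 0.0778). Other SR kinases and SR proteins (0 of 13) were led in D+V by Bclaf1 at 0.29 and Prpf4b at 0.22, U2 and 3′ splice site factors (0 of 18) by U2surp at 0.34 and Sf1 at −0.14, and exon junction proteins (0 of 9) by Eif4a3 at −0.23. Paraspeckle proteins (0 of 10) were led by Nudt21 and Pspc1 at 0.20 each, other snRNP proteins (0 of 23) by Snrpd2 at −0.23, and nonsense-mediated decay (0 of 10) by Upf2 at 0.18 (adjusted p 0.119 to 0.455). In each of the other 6 comparisons edgeR called 0 of the 156, with between 9 of them at an unadjusted p under 0.05 (5.77%, in D-V relative to S-V, beside 6.29% of all genes) and 38 (24.4%, in D+V relative to S-V, beside 12.8%). There DESeq2 called at most 5 (3.21%, in the rotated groups relative to Control, beside 1.75% of all genes), and limma voom at most 37 (23.7%, in D+V relative to S-V, beside 13.2% of all genes). In D+V relative to Control 35 of the 156 (22.4%) had an unadjusted p under 0.05, beside 2601 of all 14763 genes. DESeq2 called 9 there (5.77%, beside 5.14% of all genes) and limma voom 24 (15.4%, beside 12.7%), Syncrip and Qk among both. Both edgeR calls were lost with the replicate block, with only those groups in the fit, with the GC and length trends taken out, with the thalamus and habenula covariate, without the 6 libraries highest in choroid plexus markers, and without Control replicate 1 or 2 or D+V replicate 3, 4 or 5. Qk alone was lost without D+V replicate 2, with upper quartile scaling and with library totals. Where D+V replicate 1 was left out 13 genes were called (8.33%, beside 8.58% of all genes), and without Control replicate 3 it was 5 (3.21%, beside 2.7%).

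Of the nuclear-retained RNAs only Snhg11 was analysed here; Malat1 and Neat1 were not. Snhg11, a neuronal long non-coding RNA, averaged 202 ± 43.3 CPM in S-V, 223 ± 31.1 CPM in D+V and 226 ± 29.7 CPM in D-V (SD, n = 5 each), against 300 ± 9.72 CPM in Control (n = 3). All rotated libraries (157 to 273 CPM) lay below the 3 Control libraries (289 to 307 CPM). Its log2 differences were −0.57 for S-V, −0.43 for D+V and −0.41 for D-V (SE 0.14 each), with adjusted p of 0.157, 0.133 and 0.71 (edgeR), so it did not pass. DESeq2 and limma voom called it lower in S-V and in the rotated groups relative to Control, and edgeR did so in S-V without the 6 libraries highest in choroid plexus markers.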

How the data were processed

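Libraries were made from total RNA after oligo(dT) selection and sequenced on an Illumina NovaSeq instrument, per the labels' protocols. The submitters' processing notes name Bowtie2 2.2.8, HISAT2, StringTie 1.3.1 and DESeq2 without roles; the genome build, annotation, counting and use of strand are not stated there, so reads shared with antisense genes or near-identical copies could not be told apart. The deposited table holds the authors' estimated counts per gene for 18 libraries, 7.35% of them not whole, and they were rounded. Counts are not independent molecules.

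The members, gene lists and naming rule were chosen with earlier results of these data known. Symbols were matched for 21973 of 22063 identifiers; the other 90 held 0.0562% of counts. Genes passing filterByExpr (14763, 99.975% of counts) were scaled by TMM and tested in edgeR 4.0.16 (R 4.3.3, quasi-likelihood, robust moderation). The model held the means of the 4 groups over 18 libraries, with Benjamini-Hochberg adjustment in each of 7 comparisons. Common biological variation was 15.4%. CPM values are TMM-scaled, and levels of different genes are not scaled for length. Transcript GC content and length came from the longest protein-coding transcript of each gene in the reference annotation (GRCm38).

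Described in full were members called in any comparison, the 4 members of smallest p in each rotated group against Control, the 2 in each comparison between rotated groups, and the member of highest CPM in each of 7 role lists. The listed alternatives included DESeq2 1.42.0 and limma 3.58.1; 1 was added after seeing the data. On simulated D+V and Control counts for 14665 genes, edgeR recovered 24%, 66%, 90% and 94% of genes changed by 1.3, 1.5, 2 and 4-fold. Of its calls 4.86% were false (DESeq2 17.7%, limma voom 6.94%). The simulated counts were independent draws around a single mean for each gene. They lacked the GC and length trends and the tissue differences of the real libraries, so these rates cannot be carried over to them. No 2 libraries were identical. Replicate numbers come from the sample titles, with nothing said of a shared litter or day. Deviations of same-numbered libraries correlated over 0.1 in 3 of 3 pairs of D+V and Control, and in 9 of 24 pairs over all groups. The median r was 0.00754 for same-numbered pairs and 0.00757 for the others, so a pairing is not shown. The fit with the replicate block is given as an alternative.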

Additional observations from a re-analysis of the deposited data

Results flagged for a closer look

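Within groups of 5 libraries, 4 values of members stood apart from the other 4 libraries by a gap of at least 0.71 of the range of the group; 114 member and group pairs were examined and chance flags about 5% of them. Srsf3 had 163 CPM in D+V replicate 1 and 128 to 137 CPM in the other D+V libraries. Son had 183 CPM in D+V replicate 1 and 250 to 277 CPM in the others. Srsf7 had 79 CPM in D-V replicate 1 and 70.8 to 71.8 CPM in the others. Pnisr had 62.5 CPM in S-V replicate 4 and 50.9 to 53.8 CPM in the others.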

How the results depend on the processing

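The count of members called in D+V against Control, 4 as reported, was 12 with limma voom, and 0 with only the groups compared, with the replicate block, with the GC content and length trends removed (also together with the replicate block), with the thalamus and habenula covariate and without the 6 libraries highest in choroid plexus markers; the causes were not tested. With a library left out it was 0 to 8. Counts of 0 as reported became, with DESeq2, 6 in S-V against Control, 4 in the rotated groups against Control, 5 in D-V against D+V and 2 in D+V against S-V; with limma voom, 7, 4, 10 and 13; with GC content and length trends removed, 2 in S-V against Control and 2 in the rotated groups; with the choroid plexus covariate, 1 in the rotated groups and 1 in D-V against D+V; and with upper quartile scaling, 1 in D-V against D+V. With a library left out they were 0 to 1 in S-V against Control and in the rotated groups, 0 to 10 in D-V against D+V, 0 to 11 in D+V against S-V, and 0 in the other comparisons.

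The median log2 fold change of the members in S-V against Control was −0.0467 with upper quartile scaling, under which the median of all genes was −0.0321. In D+V against Control it was −0.0784 with upper quartile scaling (all genes −0.0479), −0.0636 with limma voom and −0.0667 to 0.0244 with a library left out. In D-V against D+V it was 0.0541 with limma voom, 0.043 with the thalamus and habenula covariate and −0.0272 to 0.059 with a library left out, and in D-V against Control −0.0394 to 0.022. Of 426 pairs of a member chosen by p and a setting, over 18 such values, 0 changed sign, 44 lost a call and 26 gained one.

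Of 24 pairs of libraries with the same replicate number in different groups, 9 had correlated deviations over 0.1 (−0.452 to 0.34). In 5 of these 24 the number shared was the best match. The median r was 0.00754 for these pairs and 0.00757 for pairs with different numbers. All 3 pairs of D+V and Control were over 0.1, and no other pair of groups had all its pairs over it. In the other comparisons the replicate block, added to the reported fit, changed no call among the members. Added to the fit with GC and length trends removed, it took the calls of Ttc14 and Zcchc7 from 2 to 0. This held in S-V against Control and in the rotated groups against Control. With the replicate block the calls over all genes in D+V against Control were 3 higher and 1 lower, in place of 114 and 25; other totals there were 594 and 165 with DESeq2, 1276 and 606 with limma voom, 44 and 44 with upper quartile scaling, 60 and 34 with library totals, 904 and 356 without D+V replicate 1, and 0 with the GC and length trends removed. The 3 Control libraries limit the precision of each comparison with Control.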
